A study of Mus musculus with 9 samples.

Results

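Genes for the subunits of the mitochondrial respiratory chain and the ATP synthase were followed across the 3 groups of arrays. Members were all genes whose symbol began with Ndufa, Ndufb, Ndufc, Ndufs or Ndufv and a number, with Uqcr, with Cox, a subunit number and then a, b or c, or with Atp5, together with Sdha to Sdhd. Cox4i1, a subunit of complex IV, does not match these letters and is counted among the related genes. The symbols matched 113 probes and 76 genes, and for 69 of these genes a probe was detected (p-value below 0.05) on 3 or more of the 9 arrays, as was the case for 13204 genes in all. Grouped by the letters of their symbols, 34 were placed in complex I, 3 in complex II, 5 in complex III, 11 in complex IV and 16 in complex V. A few of these are not subunits of the complex they are placed in, as given below.

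Complexes I and II pass electrons from NADH and succinate to ubiquinone, complex III hands them to cytochrome c, and complex IV passes them to oxygen. Complexes I, III and IV pump protons out of the matrix, and complex V, the ATP synthase, uses the returning protons to make ATP. Most subunits are encoded in the nucleus and a few in mitochondrial DNA. Pluripotent cells of the epiblast kind are known to rely strongly on glycolysis, and several subunits of complex IV have alternative forms made in heart, skeletal muscle or testis.

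RNA came from male mouse epiblast stem cells on a 129 background that carried a dsRed2 reporter and were grown with bFGF at 10 ng/ml and activin A, the latter at 20 ng/ml. There were 3 arrays each of cells sorted as dsRed2 positive, of cells sorted as dsRed2 negative, and of cells given 3 µM CHIRON for 48 h, described as biological replicates. CHIRON is a common name for CHIR99021, which blocks GSK3 and thereby activates Wnt signalling, although no more than the short name is given. The element that drives dsRed2 is not named. Whether CHIRON-treated cells also went through the sorter is unclear, so treatment and sorting cannot be told apart.

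Median probe signal ranged from 95.06 to 109.1 across arrays, and the share of probes detected from 36.7% to 41.1%. Same-numbered positive and negative arrays resembled each other, and treated replicate 3 stood apart from treated replicates 1 and 2: over 1559 bright genes the SD of the log2 difference was 0.123 between treated replicates 1 and 2 and 0.337 and 0.345 against replicate 3. Treated replicates 1 and 2 were also closer than any same-numbered pair of sorted arrays (0.139 to 0.166), and whether they came from separate cultures cannot be told from the files, so that values from 3 treated arrays may rest on fewer cultures. All 8 epiblast stem cell markers were detected on every array. Their summed level was 13.78 to 14.08 (log2) on positive arrays, 13.75 to 13.88 on negative arrays and 12.90 to 13.72 on treated arrays. The 8 primitive streak and mesoderm markers summed to 7.88 to 8.61, 7.63 to 8.26 and 12.87 to 13.28 in the same order, the 5 definitive endoderm markers to 6.61 to 6.85, 6.66 to 6.78 and 11.03 to 11.42, and the 8 feeder or fibroblast markers, of which 3 were detected on 0 arrays of any group, to 10.79 to 11.47, 11.16 to 12.13 and 12.24 to 13.96. The lists were not uniform: among epiblast markers the mean in treated against negative cells was 7.19 against 10.65 for Nanog, 7.05 against 10.69 for Utf1 and 10.06 against 11.90 for Pou5f1, but 10.66 against 9.44 for Otx2, 10.19 against 8.36 for Fgf5 and 12.65 against 12.49 for Dnmt3b, the brightest. Among feeder markers Acta2 and Vim were higher on treated arrays in the mean (11.11 against 9.86 and 12.06 against 10.71), and Thy1 was lower (5.32 against 7.72). The summed levels moved with treatment, and their part in the results on members was not tested. In bulk RNA, fewer cells of a type and less RNA per cell cannot be told apart.

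Most members were bright. Their median signal was 2330, against 189 over all genes tested, and it ranged from 107.3 for Cox6a2 to 20057 for Atp5b. Of the 69, 67 were detected on all 9 arrays, and 0 passed the detection rule through the treated arrays alone. Cox6a2 passed it through the sorted arrays alone. The median standard error of a log2 difference was 0.12 for members and 0.16 for all genes. The other 7 matched genes were not tested: Ndufs1, a core subunit of complex I, Sdha, the flavoprotein of complex II, Uqcrq, a small subunit of complex III, and the testis or muscle forms Cox7b2, Cox8b and Cox8c were detected on 0 arrays, and Uqcrfs1, the Rieske iron-sulfur protein, on 1 treated array. How well these probes report their transcripts was not tested.

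Promoters of 6 genes are shown because the results turn on them: both forms of the complex IV subunit 6b, of which 1 fell and the other was not called, the muscle form Cox7a1, the complex I genes Ndufa7 and Ndufa12l (now Ndufaf2), and Atp5k. Each is the 250 bases before the annotated start in RefSeq's GRCm38.p6 assembly, written 5′ to 3′ on the strand of the gene. The windows are chr7:30626115-30626364 (minus strand) for Cox6b1, chr7:4753095-4753344 (minus) for Cox6b2, chr7:30183921-30184170 (plus) for Cox7a1, chr17:33824322-33824571 (plus) for Ndufa7, chr13:108158626-108158875 (minus) for Ndufaf2 and chr5:108434400-108434649 (minus) for Atp5k. Ndufa7 has 2 starts listed, and the Ndufaf2 start used lies within its gene record, which begins at position 108158652. Capitals mark matches, on either strand, to the motif letters given after the sequences.
Cox6b1: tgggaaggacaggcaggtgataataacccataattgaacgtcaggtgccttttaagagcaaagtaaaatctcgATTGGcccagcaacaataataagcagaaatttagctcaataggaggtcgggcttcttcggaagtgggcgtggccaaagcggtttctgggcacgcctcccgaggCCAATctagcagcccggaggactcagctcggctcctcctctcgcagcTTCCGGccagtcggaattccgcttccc
Cox6b2: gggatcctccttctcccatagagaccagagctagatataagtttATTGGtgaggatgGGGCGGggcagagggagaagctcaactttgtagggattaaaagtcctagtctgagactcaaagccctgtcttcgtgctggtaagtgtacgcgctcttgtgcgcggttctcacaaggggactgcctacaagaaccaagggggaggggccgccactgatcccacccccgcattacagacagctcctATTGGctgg
Cox7a1: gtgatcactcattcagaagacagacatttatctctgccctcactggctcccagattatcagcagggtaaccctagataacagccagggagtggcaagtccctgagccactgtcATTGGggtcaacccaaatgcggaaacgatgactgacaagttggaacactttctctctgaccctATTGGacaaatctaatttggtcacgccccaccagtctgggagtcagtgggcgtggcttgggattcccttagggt
Ndufa7: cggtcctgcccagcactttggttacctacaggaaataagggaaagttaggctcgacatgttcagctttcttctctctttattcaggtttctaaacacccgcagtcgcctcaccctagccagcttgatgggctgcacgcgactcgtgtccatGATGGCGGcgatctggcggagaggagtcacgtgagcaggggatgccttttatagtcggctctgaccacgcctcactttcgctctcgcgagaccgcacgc
Ndufaf2: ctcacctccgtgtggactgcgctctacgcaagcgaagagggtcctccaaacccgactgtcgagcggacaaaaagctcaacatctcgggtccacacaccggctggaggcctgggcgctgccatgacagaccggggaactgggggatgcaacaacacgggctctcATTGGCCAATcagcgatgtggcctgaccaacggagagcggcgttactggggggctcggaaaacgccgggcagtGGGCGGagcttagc
Atp5k: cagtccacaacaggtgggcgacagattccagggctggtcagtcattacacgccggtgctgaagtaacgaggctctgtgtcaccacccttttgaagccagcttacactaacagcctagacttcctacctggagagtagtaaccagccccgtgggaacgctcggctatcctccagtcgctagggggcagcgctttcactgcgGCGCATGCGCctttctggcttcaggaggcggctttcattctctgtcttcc

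The motifs searched, on both strands, were GCGC, any base and TGCGC in a row, of NRF1, and CCGGAA of ETS factors such as GABP, both regulators known for respiratory chain genes, GATGGCGG of YY1, GGGCGG of Sp1 and KLF factors, CCAAT of NF-Y, and ATCAAAG of TCF/LEF, the DNA-binding partners of β-catenin. Of the 69 members, 60 had a promoter entry, as did 27025 genes in all. The NRF1 letters were in 10 member windows (16.7%, against 3.86% of all windows) and the ETS letters in 17 (28.3% against 12.2%). The YY1 letters were in 1 (1.67% against 0.862%), that of Ndufa7. The Sp1 letters were in 24 (40.0% against 32.9%) and CCAAT in 26 (43.3% against 34.5%). The TCF/LEF letters were in 0 member windows and in 3.23% of all windows. Member windows were also richer in CpG, with a median of 14.5 CpG against 6.0, and in G and C, at 57.0% against 52.0%. Among the windows printed above, Atp5k held 1 NRF1 match, Cox6b1 an ETS match and 2 CCAAT matches, Cox6b2 and Ndufaf2 a Sp1 match and 2 CCAAT matches each, and Cox7a1 2 CCAAT matches. A match describes the letters alone, and its absence says nothing of the factor.

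The first comparison asked how CHIRON-treated cells differed from dsRed2 negative cells. Of the 69 members, 3 were higher, 14 were lower and 52 were not called by limma at an adjusted p below 0.05 over all genes. That is 24.6% called, against 40% of all genes tested, of which 20.1% were higher and 19.9% lower. The median log2 difference of members was −0.08 against −0.01 for all genes, and 45 of 69 means were lower after CHIRON. Only Cox6b2 and Atp5k differed by more than 2-fold, 2.9% of members, against 12.4% of all genes called at that size. The groups of 3 arrays did not overlap for 10 members that were higher (14.5%, against 25.7% of all genes) and 26 that were lower (37.7%, against 25.6%), 52.2% of members against 51.3% of all genes in both directions. For 50 of 69 members (72.5%) the 95% interval of the difference lay within 1.5-fold either way, as it did for 37.7% of all genes.

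**Figure D1:**
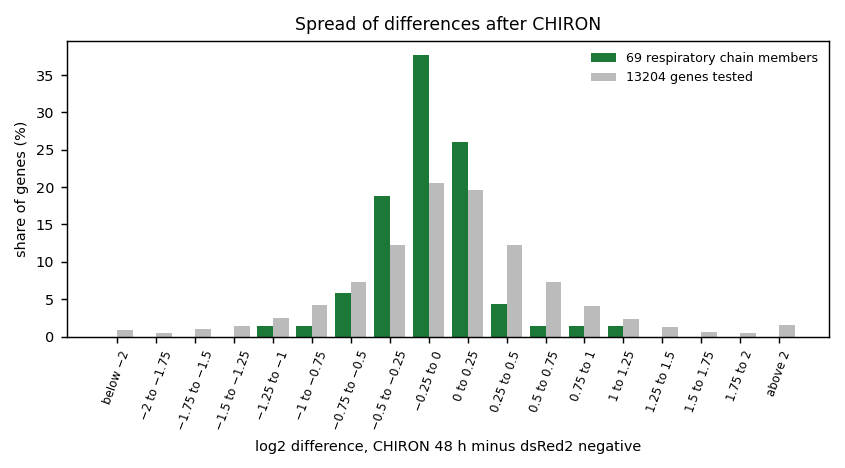
Share of the 69 members (green) and of the 13204 genes tested (grey), in percent, by bins of log2 difference between CHIRON-treated and dsRed2 negative cells. Members crowd around 0, with 37.7% between −0.25 and 0 and 26.1% between 0 and 0.25, against 20.5% and 19.6% of all genes.

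These counts depended on scaling and on single arrays. With each array centred on its median in place of quantile normalization, all genes shifted by a median of 0.14 (log2), the members' median became 0.07, and 3 members were higher and 3 lower. The share of all genes called was then 31.1%. On the deposited log2 values 9 members were higher and 16 lower, with 38.7% of all genes called. Without background correction 6 members were higher and 17 lower, with 38.6% of all genes called. In these last settings the share of members called lay closer to that of all genes than in the main fit. The 14 lower calls became 4 without negative replicate 3, 7 without negative replicate 1, 9 without positive replicate 3, and 8, 7 and 6 without treated replicates 1, 2 and 3. With treated replicates 1 and 2 averaged as 1 sample they became 9, with 33.9% of all genes called in either direction. With 1 array left out that share of all genes was 32.4% to 39.4%. Of the 17 called members, 4 were called under all alternatives in which they were tested: Ndufa12l, Ndufa7, Cox6b2 and Atp5k. The other 13 missed the threshold under at least 1, and 0 changed direction.

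**Figure D2:**
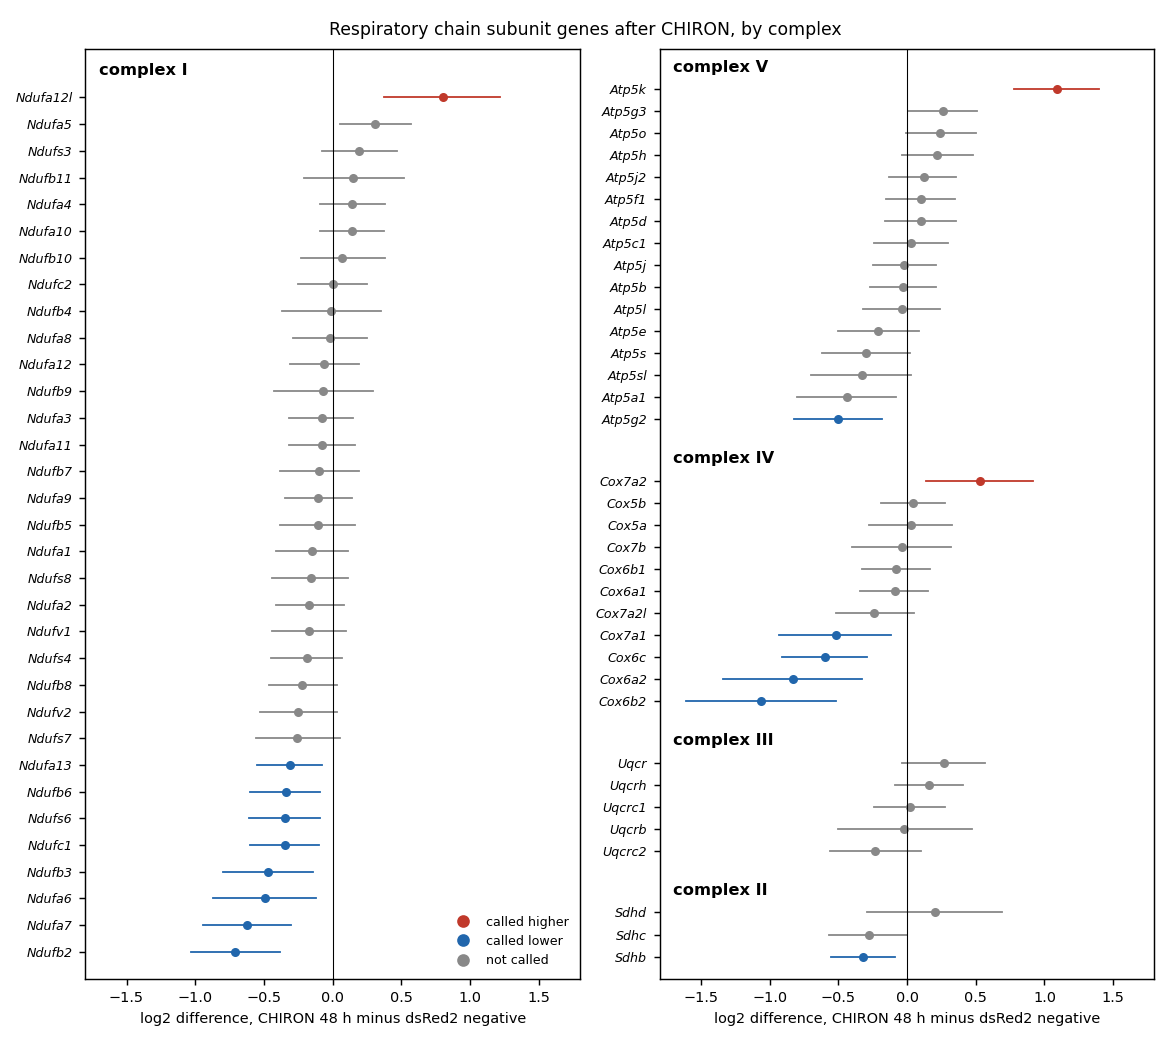
Log2 difference between CHIRON-treated and dsRed2 negative cells for 68 of the 69 members, by complex, with the 95% interval of the limma fit as a bar (n = 3 arrays per group). Red points were called higher (3), blue points lower (14) and grey points were not called (51), and Cox6b2 (−1.06) and Atp5k (1.09) lie farthest out.

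In complex I, 8 of 34 members fell and 1 rose, 26.5% called against 40% of all genes (23.5% lower against 19.9%), with a median difference of −0.11. All 8 that fell were among the 27 members grouped here as accessory subunits, which surround the catalytic core. These 27 include Ndufa4, which is now counted under complex IV. Of 5 core subunits, which belong to the part that carries the flavin and iron-sulfur clusters (Ndufs3, Ndufs7, Ndufs8, Ndufv1 and Ndufv2), 0 were called, with differences from −0.26 to 0.19. Whether core and accessory subunits differ was not tested.

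Ndufa7, an accessory subunit, read 12.49, 12.17 and 12.35 (log2 signal) on negative arrays, 12.53, 12.14 and 12.32 on positive arrays, and 11.71, 11.86 and 11.57 after CHIRON. Every treated array lay below every sorted array. The fall was 1.54-fold, −0.62 ± 0.14 (log2 difference ± SE, limma adjusted p = 0.00596, n = 3 per group).

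Ndufb2, an accessory subunit of the membrane arm, read 6.25, 6.20 and 6.05 on negative arrays, 6.47, 6.15 and 6.39 on positive arrays, and 5.72, 5.33 and 5.32 after CHIRON. The treated arrays were again the 3 lowest. The difference was −0.71 ± 0.15 (limma adjusted p = 0.00323), but the probe was dim, with a mean signal of 145.1, and without background correction the difference was −0.26. With median centring it was −0.48 and missed the threshold (adjusted p = 0.0872).

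Ndufb3, of the same arm, read 10.53, 10.61 and 10.85 on negative arrays, 10.56, 10.38 and 10.68 on positive arrays, and 10.26, 10.37 and 9.95 after CHIRON. Treated replicate 2 came within 0.01 of positive replicate 2, so the groups only just stood apart. Ndufb3 fell by 0.47 ± 0.15 (limma adjusted p = 0.0281), a call that median centring ended (−0.27, adjusted p = 0.346). Leaving out negative replicate 3 ended it too (−0.38, adjusted p = 0.104), as did leaving out treated replicate 1 (adjusted p = 0.0520) or 3 (adjusted p = 0.0854).

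The brightest complex I member was Ndufs6, an accessory subunit that binds zinc. It read 13.01, 12.80 and 13.00 on negative arrays, 13.00, 12.86 and 12.90 on positive arrays, and 12.66, 12.64 and 12.45 after CHIRON. The treated arrays did not overlap the sorted ones, and the fall was 1.28-fold (−0.35 ± 0.12, limma adjusted p = 0.0366). Ndufa6 (−0.49), Ndufc1 (−0.35), Ndufb6 (−0.34) and Ndufa13 (−0.31), all accessory subunits, also fell, with limma adjusted p between 0.0317 and 0.0401. These 4 and Ndufs6 each lost the call under 8 to 10 of the 19 alternatives. A second Ndufc1 probe also fell (−0.42, limma adjusted p = 0.0137, adjusted over all probes). Second probes of Ndufb6 (−0.44, adjusted p = 0.0818) and Ndufs6 (−0.29, adjusted p = 0.154) were not called in that fit. With the mean of its passing probes Ndufs6 missed the threshold (−0.32, limma adjusted p = 0.0666).

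The complex I entry that rose was Ndufa12l, whose current name is Ndufaf2. It encodes an assembly factor that helps to build complex I and is not part of the finished enzyme. It read 7.26, 7.90 and 7.45 on negative arrays, 7.50, 7.99 and 7.43 on positive arrays, and 8.27, 8.23 and 8.50 after CHIRON. Replicate 2 was the highest in each sorted group, and all treated arrays were higher still. The rise was 1.74-fold (0.80 ± 0.19, limma adjusted p = 0.00793). Ndufa4, now counted as a subunit of complex IV, read 12.64, 12.49 and 12.64 on negative arrays, 12.66, 12.60 and 12.59 on positive arrays, and 12.75, 12.69 and 12.75 after CHIRON. Its treated arrays were the highest, by 0.14, with a 95% interval from −0.09 to 0.38, and it was not called. On the deposited values Ndufa4 was called higher (0.22, limma adjusted p = 0.0164).

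In complex II, Sdhb, the iron-sulfur subunit, read 9.72 on each negative array, 9.86, 9.77 and 9.70 on positive arrays, and 9.41, 9.42 and 9.38 after CHIRON. The values within each group were close, and the treated ones were lowest. Sdhb fell by 0.32 ± 0.10 (limma adjusted p = 0.0332), but its second probe differed by only −0.09, and with the mean of both probes the gene was not called (−0.20, adjusted p = 0.209). With median centring the difference was −0.09 (adjusted p = 0.770). The call also ended without any 1 of the 3 negative or the 3 treated arrays (adjusted p from 0.0595 to 0.0810). Sdhc, a membrane anchor and the brightest member of the complex, read 11.09, 10.83 and 10.85 on negative arrays, 11.06, 10.75 and 10.92 on positive arrays, and 10.65, 10.68 and 10.58 after CHIRON. Its groups did not overlap, and the difference of −0.28 was not called (adjusted p = 0.0993). Sdhd, the other anchor, differed by 0.20 with an interval from −0.29 to 0.69.

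In complex III, 0 of 5 members were called, against 40% of all genes. Groups did not overlap for 2 of the 5, 40% against 51.3% of all genes. The brightest member was Uqcrh, the hinge protein, which sits beside cytochrome c1 in the enzyme. It gave 12.29, 12.12 and 12.30 on negative arrays, 12.19, 11.99 and 12.12 on positive arrays, and 12.38, 12.43 and 12.39 after CHIRON. All treated arrays were higher, by 0.16 (95% interval −0.09 to 0.41, limma adjusted p = 0.290), and on the deposited values Uqcrh was called (0.23, adjusted p = 0.0209). The core proteins Uqcrc1 and Uqcrc2 differed by 0.02 and −0.23, and the small subunits Uqcr (now Uqcr11) and Uqcrb by 0.27 and −0.02.

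Complex IV held the largest fall. Of its 11 members 4 fell and 1 rose. That is 45.5% called against 40% of all genes, and 36.4% lower against 19.9%. Those that fell included the 3 forms tested that are known from muscle or testis (Cox6a2, Cox6b2 and Cox7a1), grouped here with values known. Cox6a2 was detected on no treated array and passed the detection rule through sorted arrays alone, so the rule favoured its fall. The Cox7a1 call was lost under 9 of 19 alternatives. Against positive cells 2 of the 3 forms were called lower. Of the other 8 members, Cox6c fell and Cox7a2 rose. Cox5b, a structural subunit and the brightest of the complex, read 13.08, 12.98 and 13.12 on negative arrays, 13.04, 13.08 and 13.04 on positive arrays, and 13.03, 13.13 and 13.13 after CHIRON. Its groups overlapped, and the difference was 0.04 with an interval from −0.19 to 0.28.

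Cox6b2, the testis form of subunit 6b, read 9.70, 8.93 and 9.30 on negative arrays, 9.64, 8.72 and 8.92 on positive arrays, and 8.41, 8.13 and 8.20 after CHIRON. Replicate 1 was the highest in each group, and the treated arrays were all below the sorted ones. The fall was 2.09-fold (−1.06 ± 0.25, limma adjusted p = 0.00608). A second, dim probe (mean signal 107.6) differed by −0.46 (adjusted p = 0.124). Cox6b1, the widely expressed form, read 12.89, 12.96 and 12.88 on negative arrays, 12.89, 12.64 and 12.69 on positive arrays, and 12.78, 12.80 and 12.90 after CHIRON. Its groups overlapped, with a difference of −0.08 (95% interval −0.33 to 0.17).

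Cox6a2, the heart and skeletal muscle form of subunit 6a, read 4.93, 4.86 and 5.50 on negative arrays, 4.57, 4.93 and 5.50 on positive arrays, and 4.20, 4.32 and 4.27 after CHIRON. It was detected on all 3 negative arrays, on 2 positive arrays and on 0 treated arrays, so that only a bound on the fold can be given. On the background-corrected scale it was at least 1.37-fold lower after CHIRON than in negative cells (measured difference −0.83 ± 0.23, limma adjusted p = 0.0146). The bound holds for that scale alone: the probe was the dimmest of all members, and the difference was −0.26 without background correction and −0.31 on the deposited values, both still called. Leaving out negative replicate 3, which read highest, ended the call (−0.63, adjusted p = 0.0596), as did dropping the detection filter (adjusted p = 0.0503). Cox6a1, the form of most tissues, read 12.38, 12.48 and 12.45 on negative arrays, 12.28, 12.37 and 12.47 on positive arrays, and 12.26, 12.39 and 12.38 after CHIRON. Those groups overlapped, and the difference was −0.09 (95% interval −0.34 to 0.15).

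Cox7a1, the heart and skeletal muscle form of subunit 7a, read 8.56, 8.36 and 8.78 on negative arrays, 8.36, 7.96 and 8.39 on positive arrays, and 8.23, 8.20 and 7.71 after CHIRON. Treated replicate 3 was lowest, and the treated range overlapped that of positive cells but not that of negative cells. Cox7a1 fell by 0.52 ± 0.18 against negative cells (limma adjusted p = 0.0413), and the call was lost under 9 of 19 alternatives, including median centring (−0.28, adjusted p = 0.362), without negative replicate 3 (−0.42, adjusted p = 0.140) and without treated replicate 3 (−0.36, adjusted p = 0.130). Cox7a2, the widely expressed form, read 6.43, 6.40 and 6.77 on negative arrays, 6.53, 6.83 and 6.40 on positive arrays, and 7.25, 7.19 and 6.75 after CHIRON. Its groups overlapped, since treated replicate 3 lay below negative replicate 3. Cox7a2 rose by 0.53 ± 0.18 (limma adjusted p = 0.0341), from a dim probe (mean signal 191.4). The rise was 0.28 without background correction, and the call ended without treated replicate 1 or 2 (adjusted p = 0.119 and 0.106) or negative replicate 1 or 2 (adjusted p = 0.101 and 0.0995).

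Of the markers of cardiac and skeletal muscle, Myh6, Myh7 and Ckm were detected on 0 arrays in every group, and Actc1 was detected on all, with group means of 5.46 in negative, 5.33 in positive and 6.08 in treated cells. A further listed marker, Tnnt2, was not on the array. The 4 markers summed to 6.58 to 6.92 on negative, 6.64 to 6.72 on positive and 6.59 to 7.87 on treated arrays, so treated arrays reached down to the level of the sorted ones. Cox7a2l, a factor that links complexes III and IV, read 10.57, 10.42 and 10.58 on negative arrays, 10.74, 10.34 and 10.62 on positive arrays, and 10.25, 10.28 and 10.33 after CHIRON. The treated arrays were the lowest, and the difference of −0.24 was not called (adjusted p = 0.172). Cox6c, a small subunit at the edge of the enzyme, read 11.04, 11.10 and 11.48 on negative arrays, 10.97, 10.94 and 11.14 on positive arrays, and 10.67, 10.67 and 10.49 after CHIRON. All treated values were below all others. Cox6c fell by 0.60 ± 0.14 (limma adjusted p = 0.00667), and with median centring by 0.42, which missed the threshold (adjusted p = 0.166).

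Forms of the same subunit were also set against each other. On each array the log2 signal of 1 form was subtracted from that of the other, and this ratio was compared between groups. Against negative cells the ratio differed by −0.98 for Cox6b2 over Cox6b1 (1.97-fold), by −0.74 for Cox6a2 over Cox6a1, by −1.05 for Cox7a1 over Cox7a2 (2.07-fold) and by −0.76 for Atp5g2 over Atp5g3. In none of the 4 families did the groups overlap. Each gave a two-sided exact permutation p of 0.1, the smallest that 3 arrays against 3 allow, and 0.15 after adjustment over the 12 ratio comparisons made. Against positive cells the same ratios differed by −0.94, −0.70, −0.66 and −0.78. Between the sorted groups they differed by −0.04, −0.04, −0.39 and 0.03, with overlapping groups in each. Cox6a2 was below detection after CHIRON, so the size of its ratio change is not fixed. The first form of every ratio had already been called lower against negative cells on these same arrays. The ratios therefore restate those values and add no further support. As single genes, 51.3% of all genes tested did not overlap against negative cells, and no such share was worked out for ratios.

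**Figure D3:**
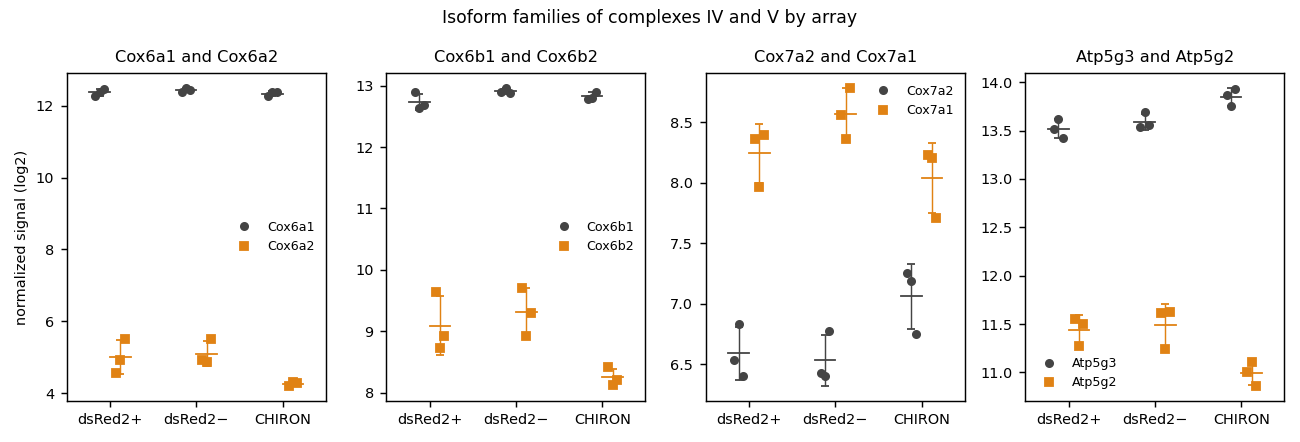
Normalized log2 signal of the paired forms on each array, by group, with the group mean as a line and the SD as a bar (n = 3). Cox6b2, Cox6a2 and Atp5g2 (orange squares) sit lower on treated arrays than on all sorted ones, the treated Cox7a1 values lie below the negative ones but overlap the positive ones, and Cox7a2 and Atp5g3 (grey circles) have higher treated means. Levels of different probes are not comparable, and Cox6a2 was not detected on treated arrays.

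In complex V, 1 of 16 members rose and 1 fell, 12.5% called against 40% of all genes. That was 6.25% in each direction, against 20.1% higher and 19.9% lower. None of the 5 subunits of the catalytic head and central stalk (Atp5a1, Atp5b, Atp5c1, Atp5d and Atp5e) was called, with differences from −0.44 to 0.10. Nor was any of the 4 of the peripheral stalk (Atp5f1, Atp5h, Atp5j and Atp5o), with differences from −0.02 to 0.24. On the deposited values Atp5o (0.31, limma adjusted p = 0.00802) and Atp5h (0.24, adjusted p = 0.0361) were called higher. Without background correction Atp5o was called too (0.24, adjusted p = 0.0252). A dim Atp5f1 probe (mean signal 122.4) was called lower (−0.61, limma adjusted p = 0.0103, adjusted over all probes), and its other passing probes were not called. Atp5b, the catalytic β subunit and the brightest member of all, read 14.28, 14.20 and 14.35 on negative arrays, 14.23, 14.38 and 14.33 on positive arrays, and 14.20, 14.22 and 14.32 after CHIRON. Its groups overlapped, and the difference was −0.03 (95% interval −0.27 to 0.21). Atp5a1, the α subunit, differed by −0.44 and missed the threshold (adjusted p = 0.0535), and it passed on the deposited values (−0.35, adjusted p = 0.0382) and without treated replicate 1 (−0.59, adjusted p = 0.0183). Atp5s and Atp5sl, which match the Atp5 letters but are now named Dmac2l and Dmac2 and are not ATP synthase subunits, differed by −0.30 and −0.33 and were not called.

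Atp5k, the small membrane subunit e, gave the largest rise of all members. It read 4.82, 5.12 and 5.08 on negative arrays, 4.98, 4.86 and 4.63 on positive arrays, and 6.05, 6.25 and 6.0 after CHIRON. Every treated array was well above every sorted array. The rise was 2.13-fold against negative cells (1.09 ± 0.14, limma adjusted p = 0.000181) and 2.43-fold against positive cells (1.28, limma adjusted p = 6.63e-05). The probe was dim, at a mean signal of 126.5 and detected on 2 of 3 positive arrays, and without background correction the difference against negative cells was 0.35, still called.

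Atp5g2 and Atp5g3 encode the same mature subunit c, which forms the rotating ring, from separate genes. Atp5g2 read 11.61, 11.24 and 11.62 on negative arrays, 11.55, 11.27 and 11.50 on positive arrays, and 11.00, 11.11 and 10.86 after CHIRON. The treated arrays were the 3 lowest. Atp5g2 fell by 0.50 ± 0.14 (limma adjusted p = 0.0184), and the call ended with median centring (−0.36, adjusted p = 0.152) and without any 1 of negative replicates 1 and 3 and treated replicate 3 (adjusted p = 0.0646, 0.0670 and 0.0512). Atp5g3 read 13.54, 13.69 and 13.56 on negative arrays, 13.52, 13.62 and 13.42 on positive arrays, and 13.87, 13.76 and 13.93 after CHIRON. The treated arrays were the 3 highest. Against negative cells the difference of 0.26 was not called (95% interval 0.01 to 0.51, adjusted p = 0.0946). There Atp5g3 was called higher without background correction (0.26, limma adjusted p = 0.0196), on the deposited values (0.28, adjusted p = 0.016) and without the detection filter (adjusted p = 0.0478). Against positive cells Atp5g3 rose by 0.34 (limma adjusted p = 0.0374), a call lost under 8 alternatives.

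Of the members, 20 had several passing probes, and after CHIRON against negative cells 9 of these had probes that differed in sign and 8 had probes that differed in call, but 0 had probes called in opposite directions. Probe p-values here are adjusted over all passing probes. For Ndufb8, an accessory subunit of complex I, the bright probe differed by −0.22 and a second probe of mean signal 128.3 rose by 1.24 (limma adjusted p = 0.000171). For Atp5j, coupling factor 6, the bright probe differed by −0.02 and a second probe of mean signal 286.8 rose by 1.51 (limma adjusted p = 0.00161). For Ndufs4, an accessory subunit, 4 probes differed by −0.19, −0.48, −0.36 and −0.50, and 2 of them were called lower. Which transcripts each probe binds was not tested.

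CHIRON-treated cells were next set against dsRed2 positive cells. The treated arrays are the same in both comparisons, so the values below are given beside those above and are not an independent check. Of 69 members 3 were higher and 11 lower, 20.3% called against 41% of all genes (20.6% higher and 20.5% lower), with a median of −0.03 against −0.02. Groups did not overlap for 44.9% of members and 53.2% of all genes. By complex, 1 member rose and 6 fell in complex I, 1 fell in complex II, 0 were called in complex III, 3 fell in complex IV, and 2 rose and 1 fell in complex V. With median centring 3 were higher and 3 lower, with 31.4% of all genes called. On the deposited values 9 were higher and 14 lower, with 39.6% of all genes called. The 11 lower calls became 3 without positive replicate 1, 4 without positive replicate 3, and 5 without any 1 of the treated arrays. The 3 higher calls became 1 without positive replicate 1 or 3. With 1 array left out, 32.9% to 41.1% of all genes were called.

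Side by side, the difference against positive cells was −0.88 for Ndufb2 (limma adjusted p = 0.000875), against −0.71 in the comparison with negative cells, and −0.61 for Ndufa7 (adjusted p = 0.00629), against −0.62. It was −0.85 for Cox6b2 (adjusted p = 0.0183) against −1.06, and 0.70 for Ndufa12l (adjusted p = 0.0153) against 0.80. Cox7a1 differed by −0.19 against positive cells and was not called (95% interval −0.59 to 0.21), and Ndufb3 (−0.35), Ndufb6 (−0.31) and Cox7a2 (0.47) also missed the threshold there. Ndufa7, Ndufb2 and Atp5k kept their calls against positive cells under every alternative in which they were tested. The Cox6b2 call against positive cells was lost under 5 alternatives: without positive replicate 1 (−0.58, adjusted p = 0.0633), without treated replicate 2 (−0.79), with median centring (−0.66), with the mean of passing probes (−0.61) and without the detection filter (−0.85), the last 4 with adjusted p from 0.0536 to 0.0633.

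The third comparison asked whether the 2 sorted groups differed. Among members 0 of 69 were called by limma on the 9 arrays, against 0% of all genes, and 0 reached an unadjusted p below 0.05, against 2.79% of all genes. The median difference of positive minus negative was −0.01, and the median size was 0.05 (log2), against 0.09 for all genes. For 64 of 69 members the 95% interval lay within 1.5-fold either way. Groups did not overlap for Ndufa3 and Atp5c1, 2.9% of members against 7.66% of all genes (3.63% higher and 4.03% lower), with differences of −0.14 and −0.09. A fit of the 6 sorted arrays with same-numbered arrays paired called 0 members and 0.0227% of all genes.

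Over the 9 arrays, limma gave the smallest unadjusted p between the sorts for Ndufb9 (0.0875), Cox7a1 (0.0966) and Ndufs3 (0.139). Cox7a1 was lower in positive cells in 3 of 3 pairs, by 0.20, 0.41 and 0.39, a mean difference of −0.33 that did not pass (paired limma fit, unadjusted p = 0.0112, adjusted p = 0.391). With pairing it was the 1 member whose unadjusted p fell below 0.05, a level reached by 9.15% of all genes. Ndufb9, an accessory subunit of complex I, read 6.73, 6.64 and 7.12 on negative arrays and 6.34, 6.80 and 6.43 on positive arrays, with pair differences of −0.39, 0.16 and −0.69. Its groups overlapped, and the difference of −0.31 was not called. Ndufs3, a core subunit, read 10.21, 9.97 and 10.05 on negative arrays and 10.40, 10.18 and 10.23 on positive arrays. The pairs differed by nearly the same amount, 0.19, 0.21 and 0.19, and the mean difference of 0.20 was not called.

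Genes that make, feed or regulate the chain were read from lists of related genes, each count again from the fit over all genes in treated against negative cells. Of 6 nuclear genes listed with the subunits that the symbol rule does not cover, 1 was called (16.7%, against 40% of all genes). This was Atpif1, which encodes the inhibitor of ATP hydrolysis by complex V and not a subunit. Atpif1 fell by 0.55 ± 0.12 (limma adjusted p = 0.00357), and with the mean of its probes it was not called (−0.26, adjusted p = 0.179). Of 7 mitochondrially encoded subunits tested, 1 was called (14.3%, against 40% of all genes). This was mt-Nd1, which rose by 0.68 ± 0.13 (limma adjusted p = 0.00195). The other 6 were not called, among them mt-Nd4 (0.13), mt-Cytb (0.02), mt-Co2 (−0.28) and mt-Atp6 (−0.27). Against positive cells mt-Nd1 was also called higher, a call lost under 5 of 19 alternatives.

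Assembly factors build the complexes and are not part of the finished enzymes. Of 11 complex I assembly genes 2 rose and 5 fell (63.6%): Ndufaf4 rose by 1.65 ± 0.11, Ndufaf7, a methyltransferase, fell by 1.20, and Tmem126b fell by 0.75. Of 10 genes for complexes II, III and V, 2 rose and 3 fell (50%), with Sdhaf2 at 0.58, Sdhaf3 at −0.70 and Uqcc2 at −0.69. Of 17 complex IV assembly genes 4 rose and 3 fell (41.2%), with Cox19 at 1.02, Cox18, an insertase for the mitochondrially encoded Cox2 protein, at −0.98, and Cox14 at −0.81. These shares stand beside 24.6% of members and 40% of all genes, and their difference was not tested.

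Of 13 genes for cytochrome c and ubiquinone synthesis, 3 rose and 1 fell (30.8%); Cycs, which encodes cytochrome c, rose by 0.75 (limma adjusted p = 0.00963), and Pdss1 and Coq8b of ubiquinone synthesis by 0.89 and 0.61. Of 16 TCA cycle and pyruvate dehydrogenase genes 2 rose and 2 fell (25%), with Mdh2, malate dehydrogenase, at 0.59, Dlat, a pyruvate dehydrogenase subunit, at 1.03 and Suclg2, of succinyl-CoA ligase, at −0.64. Among 5 genes of the pyruvate and uncoupling list, 3 fell (60%, against 40% of all genes): Pdk1 by 1.75 ± 0.30, Pdk4 by 0.92 and Pdk3 by 0.45. All 3 encode kinases that inhibit pyruvate dehydrogenase. Against positive cells 2 of the 5 were called lower (40%, against 41% of all genes), and Pdk4 was not called. The Pdk4 call against negative cells was lost under 6 alternatives.

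Of 12 regulators of mitochondrial gene expression 4 rose and 3 fell (58.3%). Nrf1 rose by 1.54 ± 0.18 (limma adjusted p = 0.000114). Of the 10 members with NRF1 letters in their promoter window 3 were called, Atp5k higher and Atp5g2 and Ndufs6 lower. Whether the Nrf1 rise bears on members was not tested. Polg, the mitochondrial DNA polymerase, fell by 1.60, and Tfb1m, a methyltransferase of mitochondrial ribosomal RNA, by 1.25. Of 72 mitochondrial ribosome genes 17 rose and 9 fell (36.1%), with Mrps11 at 1.01, Mrps7 at 0.95 and Mrpl24 at −1.51, and of 19 import genes 5 rose and 2 fell (36.8%), with Timm29 at 0.97, Timm9 at 0.42 and Tomm40l at −1.34. Of 72 cytosolic ribosome genes 1 rose (Rpl21, 0.49) and 4 fell (6.94%; Rps6 by 0.46 and Rps6-ps3, a pseudogene, by 0.48), with a median of −0.09. Against 40% of all genes called, these shares are descriptions of the lists.

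Sizes of the dimmer related genes depended on background correction. Without it the difference was −0.36 for Tmem126b, 0.33 for Sdhaf2, 0.48 for Pdss1, 0.27 for Coq8b, 0.38 for Dlat, −1.09 for Pdk1, −0.62 for Tfb1m and 0.27 for Rpl21, all still called, and −0.26 for Pdk4, which was not. With the mean of its passing probes Nrf1 differed by 0.85 and was called. With median centring the calls of Tmem126b (−0.50), Sdhaf3 (−0.44), Cox14 (−0.63), Suclg2 (−0.40), Pdk3 (−0.20), Rps6 (−0.39) and Rps6-ps3 (−0.23) were lost.

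**Figure D4:**
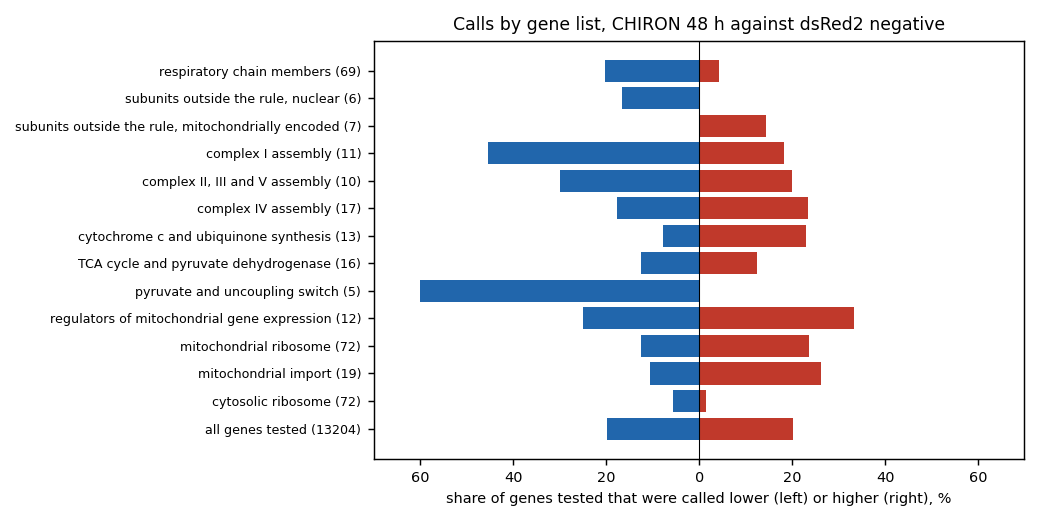
Share of the genes tested in each list that limma called lower (blue, to the left) or higher (red, to the right) in CHIRON-treated against dsRed2 negative cells, in percent, with the number tested in brackets. The members had 4.35% higher and 20.3% lower, against 20.1% and 19.9% of all genes tested.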

How the data were processed

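RNA of 9 samples was hybridised to Illumina bead arrays of 1 colour. The deposited signal intensity per probe is linear and not normalized, and the detection p-value was used as deposited, both per the file headers. A second deposited table holds log2 values that the authors had normalized; the submitters' processing notes name lumi, without a version or method. Their column medians were 6.093 to 6.102 and their slopes on the log2 signal of the same array 0.992 to 1.078.

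Signals of 45281 probes went through neqc of limma 3.58.1 (R 4.3.3): normexp from the detection p-values, an offset of 16, quantile normalization, log2. Probes detected (p below 0.05) on at least 3 arrays were kept (19074), with 1 probe per gene, that of the highest mean signal. Of 30869 symbols 16219 were current and 5710 were updated; members keep the file's symbols. Unless stated, 1 limma model (lmFit, eBayes) held all 9 arrays and only group, two-sided, with Benjamini-Hochberg adjustment over all 13204 genes at 0.05, and the code was tested on simulated data. Intervals are 95% intervals of the fit. A gene undetected in a group is given as a bound against the lowest detected signal. Arrays carry no depth, so their number limits precision. The limma p-values set each difference against the spread between these samples, estimated over the 3 groups together. No slide or scan batch was analysed here.

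Members, lists and tests were chosen with earlier results of these data known. Members could be named, except 1 that is not reported singly here; per-array values were given for up to 3 called members a direction and complex by smallest p, the brightest member per complex, isoform families and the 3 smallest p between sorts, and up to 3 called genes by smallest p were named per related list. Grouping by role (core, accessory, stalk) and the other genes given without per-array values, among them mt-Nd4, mt-Cytb, mt-Co2, mt-Atp6, were chosen after values were seen. Rps6k kinases, which match the ribosome letters, were left out. Probes of Ndufa3 and Atp5l under other symbols (2) were not used. Replicate numbers paired the sorted arrays: deviations of same-numbered arrays correlated at 0.54, 0.58 and 0.35, and with treated arrays between −0.14 and 0.10. Alternatives changed the background correction, normalization, values, filter, probe, arrays fitted, block, weights and replicates.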

Additional observations from a re-analysis of the deposited data

How the results depend on the processing

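In treated against negative cells, the 3 members called higher became 6 without background correction, 9 on the deposited values, 5 with the mean of passing probes and 5 when any passing probe counted, and 2 to 3 with 1 array left out. The 14 called lower became 17 without background correction and 16 on the deposited values. They became 3 with median centring, 7 with only the 6 arrays compared, 9 with treated replicates 1 and 2 averaged, and 4 to 14 with 1 array left out. Of all genes, 38.6% were called without background correction, 38.7% on the deposited values and 31.1% with median centring. The median of −0.08 became 0.07 with median centring, which moved all genes by 0.14, and lay between −0.12 and −0.06 with 1 array left out. In treated against positive cells, the 3 called higher became 7 without background correction, 9 on the deposited values, 5 without the detection filter, 5 with detection required on all 9 arrays, 7 with the mean of passing probes, 6 with array weights, 5 when any probe counted, and 1 to 4 with 1 array left out. The 11 called lower became 17 without background correction, 3 with median centring, 6 with treated replicates 1 and 2 averaged, and 3 to 12 with 1 array left out. Of all genes, 39.7% were called without background correction, 39.6% on the deposited values and 31.4% with median centring. The median of −0.03 became 0.06 with median centring and lay between −0.08 and −0.02 with 1 array left out. Between the sorts 0 members were called under every alternative run, with medians from −0.04 to 0 with 1 array left out. With replicate number as a block over all 9 arrays, 3 members were higher and 15 lower against negative cells, 4 higher and 11 lower against positive cells and 0 between the sorts; the paired fit of the 6 sorted arrays also called 0. Averaging probes reversed Ndufb8 against negative cells (0.51, limma adjusted p = 0.00625) and positive cells (0.54, adjusted p = 0.00456) and Atp5j against negative cells (0.74, adjusted p = 0.0038). Each reversal came through the less bright second probe, of mean signal 128.3 for Ndufb8 and 286.8 for Atp5j. Other causes were not tested. Signal over background limits the dim members: 11 of 69 had a mean signal under 200.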
